A study of Mus musculus with 6 samples.

Results

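Endoplasmic reticulum-associated degradation (ERAD) was described through 9 of its genes: Edem1, Edem2, Edem3, Os9, Sel1l, Syvn1, Herpud1, Derl1 and Derl2. They were chosen by name, and a probe was taken as theirs where its accession mapped to 1 of these genes. They hold 12 of the 42126 probes tested and make up 9 of the 16490 genes tested, and no probe of theirs was lost to the filter on low signals. The RNA came from neuro2a cells, a mouse neuroblastoma line grown for neuronal studies, and was read on 6 single-colour Agilent mouse arrays. Control cells (3 arrays) received an empty miR RNAi vector, and knockdown cells (3 arrays) received miR RNAi vectors for NF-YA and for NF-YC in the same EmGFP-miR backbone. Both groups were transfected with a lipid reagent and incubated for 2 days before total RNA was prepared, and whether transfected cells were separated from the rest is not given in the sources used here. NF-Y is a transcription factor built of NF-YA and NF-YC together with NF-YB. It binds CCAAT motifs in promoters, and the comparison asks which transcripts depend on it in neuronal cells.

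ERAD takes proteins that fail to fold in the endoplasmic reticulum (ER) back to the cytosol, where the proteasome destroys them. Mannosidases and mannosidase-like proteins of the Edem family trim the sugars of glycoproteins that linger unfolded, and lectins such as Os9 read the trimmed sugar and hand the client to a ligase in the ER membrane. There, Sel1l holds the ubiquitin ligase Syvn1 (also called Hrd1), Herpud1 joins this complex, and the derlins help to form the path through the membrane before the Vcp ATPase pulls the client out. Several of these genes are known to be induced in ER stress through promoter elements in which a CCAAT end, bound by NF-Y, lies close to an end bound by a stress factor.

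The windows before the start sites show where these CCAAT letters stand in the 9 genes. RefSeq windows (GRCm38.p6, 250 bases before to 50 after an annotated start) were matched for 8 of the 9 genes by symbol, and Derl1 was not matched. The pentamer CCAAT, read on both strands, was in 7 of the 9 windows, which belong to 7 of the 8 genes. Of these windows, 6 held 2 or more copies. Of all 32851 windows in the table, 37.4% held it, 11.7% held 2 or more and 1.06% held 4 or more. Sel1l and Os9 held 4 copies each and Derl2 held 5 before its second annotated start, while the window at its first start, and the Edem2 window, held none. Edem1 held a single copy, at -106 from the start, and Edem3, Syvn1 and Herpud1 held 2 each. The windows of Edem1 and Edem3 and the second of Derl2 lie at starts that are not the outermost of the gene. GC content of the windows ran from 47.3% for Edem2 to 76% for Edem1.

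The longer ER stress elements were rarer. The ER stress response element (ERSE), read as CCAAT and CCACG with any 9 bases between them, was in 0.119% of all windows and in 1 member, Syvn1, from -44 to -26. The second element, ERSE-II, read as ATTGG and CCACG with any 1 base between them, was in 0.0365% of all windows and in 1 member, Herpud1, from -52 to -42. In both elements the CCAAT end is also counted among the copies of the pentamer. The core of the unfolded protein response element, TGACGTGG, was in 0.676% of windows and in no member. A match is a run of letters and was not tested as a binding site. The 250 bases before the start are shown for 5 genes that differ in these letters or in their response, with 2 kinds of letters in capitals. These are the pentamer CCAAT, which appears as ATTGG where it lies on the other strand, and the CCACG end of ERSE or ERSE-II. They are Edem1 (chr6:108828391-108828640, plus strand), Sel1l (chr12:91849158-91849407, minus strand), Derl2 before its second start (chr11:71019304-71019553, minus strand), Syvn1 (chr19:6046326-6046575, plus strand) and Herpud1 (chr8:94386179-94386428, plus strand), each written 5′ to 3′ along its gene.
Edem1: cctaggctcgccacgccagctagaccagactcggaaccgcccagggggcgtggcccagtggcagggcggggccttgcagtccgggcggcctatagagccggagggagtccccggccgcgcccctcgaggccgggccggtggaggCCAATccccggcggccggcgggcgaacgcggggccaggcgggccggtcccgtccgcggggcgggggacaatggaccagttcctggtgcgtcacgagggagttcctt
Sel1l: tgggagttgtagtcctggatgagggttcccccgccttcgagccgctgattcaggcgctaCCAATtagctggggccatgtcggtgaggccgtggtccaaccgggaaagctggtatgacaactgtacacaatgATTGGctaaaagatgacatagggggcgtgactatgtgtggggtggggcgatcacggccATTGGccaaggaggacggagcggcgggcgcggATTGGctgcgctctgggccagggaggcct
Derl2: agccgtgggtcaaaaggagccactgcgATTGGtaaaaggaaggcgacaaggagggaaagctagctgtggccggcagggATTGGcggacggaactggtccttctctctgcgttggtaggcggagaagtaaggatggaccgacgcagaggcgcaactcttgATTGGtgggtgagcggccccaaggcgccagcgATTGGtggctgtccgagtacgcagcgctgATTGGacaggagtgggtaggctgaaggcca
Syvn1: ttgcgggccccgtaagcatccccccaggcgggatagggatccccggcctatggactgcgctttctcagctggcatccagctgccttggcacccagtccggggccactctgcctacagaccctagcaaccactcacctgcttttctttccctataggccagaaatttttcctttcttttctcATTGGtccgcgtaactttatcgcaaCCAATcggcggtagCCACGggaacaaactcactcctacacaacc
Herpud1: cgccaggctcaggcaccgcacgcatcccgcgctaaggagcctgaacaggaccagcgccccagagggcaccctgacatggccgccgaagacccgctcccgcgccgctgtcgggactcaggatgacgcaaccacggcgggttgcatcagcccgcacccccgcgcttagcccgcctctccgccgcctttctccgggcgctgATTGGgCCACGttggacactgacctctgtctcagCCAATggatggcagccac

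**Figure D1:**
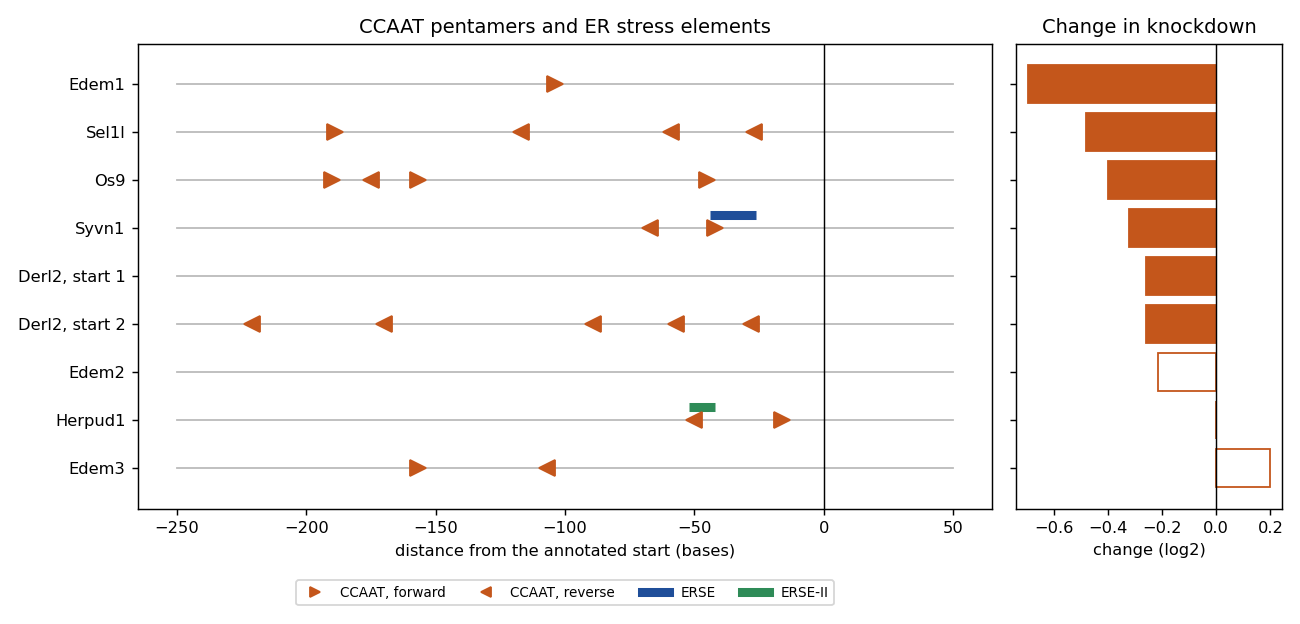
Left, positions of CCAAT (triangles, pointing along the strand), ERSE and ERSE-II (bars) in bases from the annotated start, for the 9 windows of 8 genes. Right, the log2 change of each gene, filled where the adjusted p was below 0.05; the Sel1l and Os9 windows hold 4 CCAAT copies each, and the Edem2 window none.

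The arrays were of like quality, all on 1 slide. The share of spots well above background was 61.9 to 66.2%, the 75th percentile of the processed signal was 718 to 754 intensity units, and arrays correlated across probes at 0.989 to 0.994 within groups and 0.987 to 0.990 between them. Both targeted transcripts fell in knockdown, with log2 changes of -0.76 for Nfya and -1.81 for Nfyc, and Nfyb, which was not targeted, rose by 0.83 (limma, SE 0.055, 0.045 and 0.060, adjusted p 0.00128, 0.000323 and 0.00131). Of 10 neuroblastoma and neuronal markers, 9 were well above background on all 6 arrays and Nefl on none. Their summed level, relative to the 75th percentile of the array, was 215 to 224 in control and 214 to 220 in knockdown. Single members passed the test in both directions, with log2 changes of -0.69 for Mycn, -0.25 for Stmn2, -0.25 for Gap43, 0.22 for Gata3 and 0.49 for Isl1. Of 8 markers of other cell types, Cd68 had no probe, 4 were above background on all arrays and Epcam on none, and their summed level was 0.385 to 0.400 in control and 0.400 to 0.425 in knockdown. Of these, Pdgfra (1.29), Col1a1 (-0.77) and Ptprc (-0.52) passed. Their part in the results was not tested. The 3 control arrays and knockdown array 1 lay in slide row 1, and knockdown arrays 2 and 3 in slide row 2.

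In knockdown, 6 of the 9 genes were lower at an adjusted p below 0.05: Edem1, Os9, Sel1l, Syvn1, Derl1 and Derl2. Edem2, Edem3 and Herpud1 did not pass. By limma 0 of the 9 passed in the higher direction, and Edem3 alone was higher at an unadjusted p below 0.05. Among all 16490 genes, 15.8% passed in the lower direction and 15.7% in the higher. The median change of the 9 genes was -0.28 on the log2 scale, beside 0.005 over all genes. Edem1 alone was called, which also asks for a fold change above 1.5, where 5.0% of all genes were called lower and 3.91% higher. In 7 of the 9 genes every knockdown array lay below every control array, as in 27.1% of all genes, and in Edem3 every one lay above, as in 27.7%. Values are processed signals on the log2 scale, relative to the 75th percentile of their array (which is thus 0), and changes are knockdown minus control from limma with Benjamini-Hochberg adjustment over all probes. All 12 probes were well above background on all 6 arrays, and none was saturated. Nothing in the labels says that replicates came from separate cultures, so p-values measure the spread between these samples, which may be technical, and in bulk RNA fewer expressing cells cannot be told apart from less RNA per cell.

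**Figure D2:**
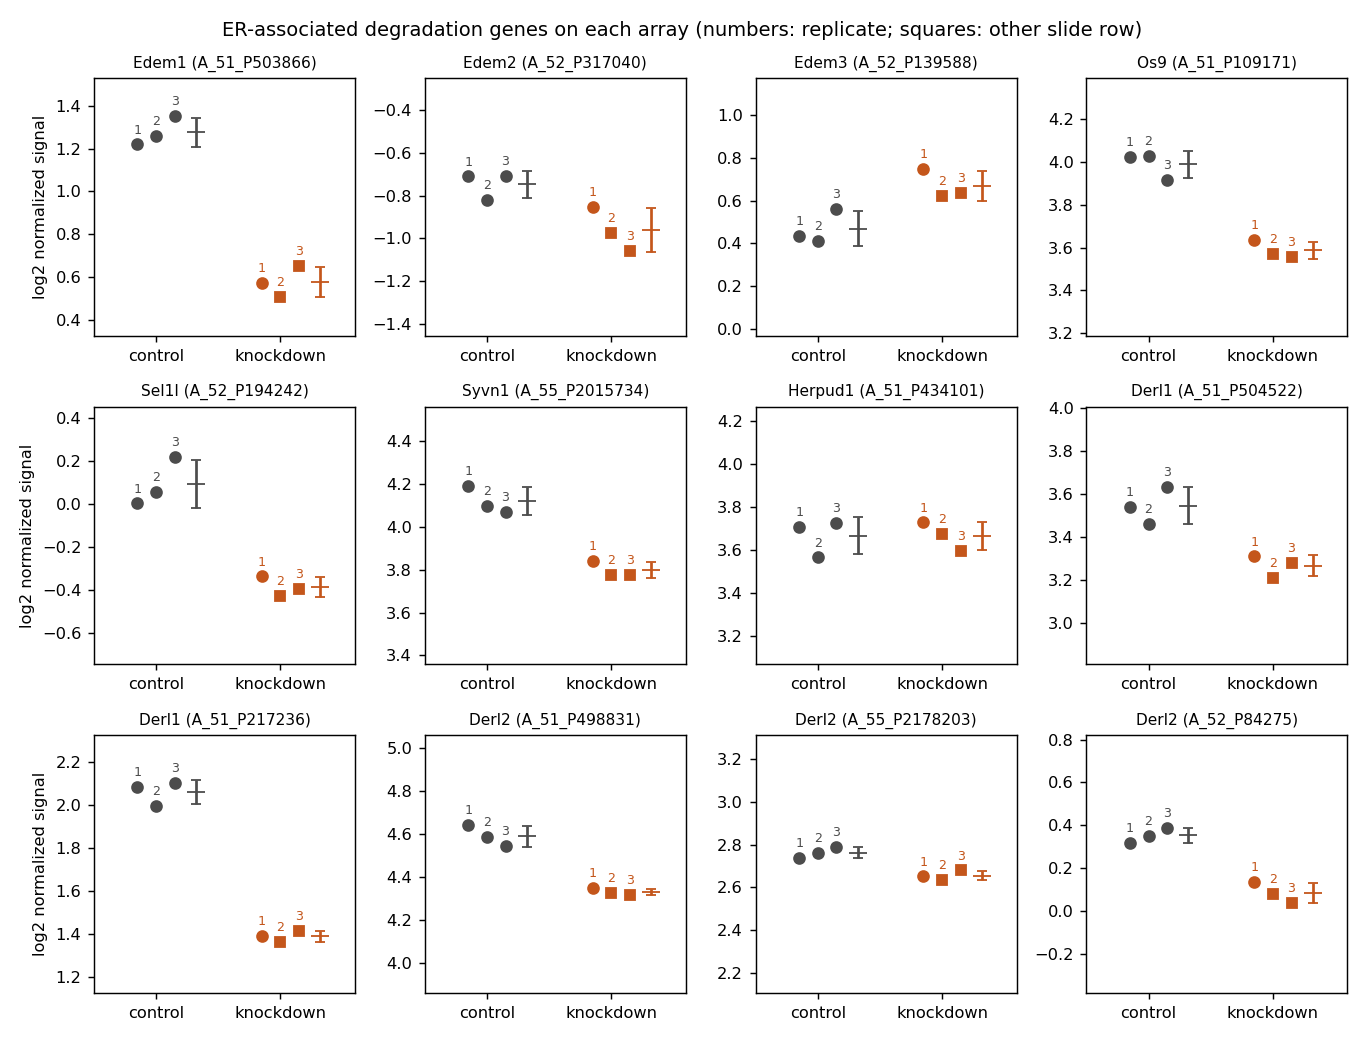
Log2 normalized signal of the 12 probes of the 9 genes on each array (control grey, knockdown orange, numbers are replicates, squares are arrays of slide row 2), with mean and SD of 3 arrays beside the points; each panel has its own origin and the same span. The Herpud1 groups overlap, the Edem3 knockdown arrays lie above the control arrays, and in the other panels the knockdown arrays lie below them.

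The Edem family trims mannose from misfolded glycoproteins, and among its 3 members only Edem1 passed the test. Edem1 signal was 1.22, 1.26 and 1.35 on the control arrays and 0.57, 0.51 and 0.65 on the knockdown arrays. The groups lay far apart, at 1.28 ± 0.068 (SD, n = 3) and 0.58 ± 0.072 (SD, n = 3). Edem1 fell by 0.70 (limma, SE 0.062, 95% interval -0.86 to -0.54, adjusted p 0.00212), to 61.7% of control. Edem2 signal was -0.71, -0.82 and -0.71 in control and -0.85, -0.98 and -1.06 in knockdown. Every knockdown array was lower, but the gap between the nearest arrays was small against the spread, and the difference of -0.21 did not pass (SE 0.071, interval -0.40 to -0.03, limma adjusted p 0.0932). Edem3 signal was 0.44, 0.41 and 0.56 in control and 0.75, 0.62 and 0.64 in knockdown. Here every knockdown array was higher, at a difference of 0.20 that did not pass (SE 0.065, interval 0.03 to 0.37, limma adjusted p 0.0896). With quantile normalization Edem3 did pass, at 0.22, and so it did when arrays were scaled on probes well above background, at 0.25.

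The differences within the family were compared on each array. Knockdown minus control, the change of Edem1 minus Edem2 was -0.48, that of Edem1 minus Edem3 was -0.90, and that of Edem2 minus Edem3 was -0.41. In each of these 3 pairs no knockdown array overlapped a control array. The exact permutation test over the 20 assignments of arrays, two-sided, gave p = 0.1 for each, which is the smallest p that 3 against 3 arrays can give, and 0.167 after adjustment over the 5 pairs compared. No other test of these differences was run.

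Os9 encodes a lectin that carries trimmed glycoproteins to Sel1l. Its probe is printed 10 times on each array, and the mean of those spots was 4.02, 4.03 and 3.92 in control and 3.63, 3.57 and 3.56 in knockdown. The groups were 3.99 ± 0.063 (SD, n = 3) and 3.59 ± 0.041 (SD, n = 3) and did not overlap. Os9 fell by 0.40 (SE 0.053, interval -0.54 to -0.27, limma adjusted p 0.00656), to 75.7% of control.

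Sel1l, the scaffold of the ligase complex, read 0.003, 0.06 and 0.22 on the control arrays and -0.34, -0.43 and -0.40 on the knockdown arrays. Control array 3 stood highest, and all knockdown arrays were below all controls. Sel1l fell by 0.48 (SE 0.072, interval -0.66 to -0.30, limma adjusted p 0.00955), to 71.7% of control. Syvn1, the ubiquitin ligase itself, read 4.19, 4.10 and 4.07 in control and 3.84, 3.78 and 3.77 in knockdown. Again the groups were separate, and Syvn1 fell by 0.32 (SE 0.052, interval -0.45 to -0.19, limma adjusted p 0.0125), to 80.0% of control. Syvn1 no longer passed without knockdown replicate 2 or 3, at a change of -0.31 in both cases (limma adjusted p 0.0501 and 0.0532). Sel1l minus Syvn1 differed by -0.16 between the groups, with overlapping arrays (exact permutation p = 0.3, adjusted 0.375).

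Herpud1 encodes a membrane protein with a ubiquitin-like domain that joins the Syvn1 complex and is known as an ER stress gene. It read 3.71, 3.57 and 3.73 in control and 3.73, 3.67 and 3.60 in knockdown. The groups overlapped, at 3.67 ± 0.088 (SD, n = 3) and 3.67 ± 0.066 (SD, n = 3). The difference was 0.00 (SE 0.067, interval -0.17 to 0.17, limma adjusted p 0.997), and its sign differed among the other settings, which ran from -0.12 to 0.06. Herpud1 is the member whose window holds ERSE-II, and Syvn1 the member whose window holds ERSE, as printed above.

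The derlins are membrane proteins related to rhomboid proteases and work beside Syvn1. Derl1 has a pair of probes. Probe A_51_P504522, from which the gene was read because its mean signal was higher, gave 3.54, 3.46 and 3.64 in control and 3.31, 3.21 and 3.28 in knockdown. Its groups were separate, and it changed by -0.28 (SE 0.063, interval -0.44 to -0.12, limma adjusted p 0.0321). Probe A_51_P217236 gave 2.08, 1.996 and 2.10 in control and 1.39, 1.36 and 1.41 in knockdown. This probe changed by -0.67 (SE 0.048, interval -0.80 to -0.55, limma adjusted p 0.00128), and was past a fold change of 1.5. The change thus differed by 0.39 between probes of Derl1, where the within-array difference of the probes had an SD of 0.039 in control and 0.038 in knockdown, and what sets them apart was not tested. On its main probe Derl1 no longer passed when any array but control replicate 2 was left out, at changes from -0.30 to -0.24.

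Derl2 has 3 probes, all lower on every knockdown array than on any control array. The main probe, A_51_P498831, gave 4.64, 4.59 and 4.54 in control and 4.35, 4.33 and 4.32 in knockdown. Derl2 fell by 0.26 on it (SE 0.045, interval -0.38 to -0.14, limma adjusted p 0.0152). This probe no longer passed without control replicate 1 or 2 or knockdown replicate 2 or 3, at changes from -0.26 to -0.23. Probe A_52_P84275 fell by 0.27 (SE 0.048, limma adjusted p 0.0161), from 0.32, 0.35 and 0.39 to 0.14, 0.08 and 0.04. On probe A_55_P2178203 the difference was -0.11 and did not pass (SE 0.040, limma adjusted p 0.128). Derl1 minus Derl2 on their main probes differed by -0.02 between groups (exact permutation p = 0.9, adjusted 0.9), a value that was above 0 without control replicate 3 (0.05) or knockdown replicate 2 (0.01). With the probes of each gene averaged, this difference was -0.265.

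**Figure D3:**
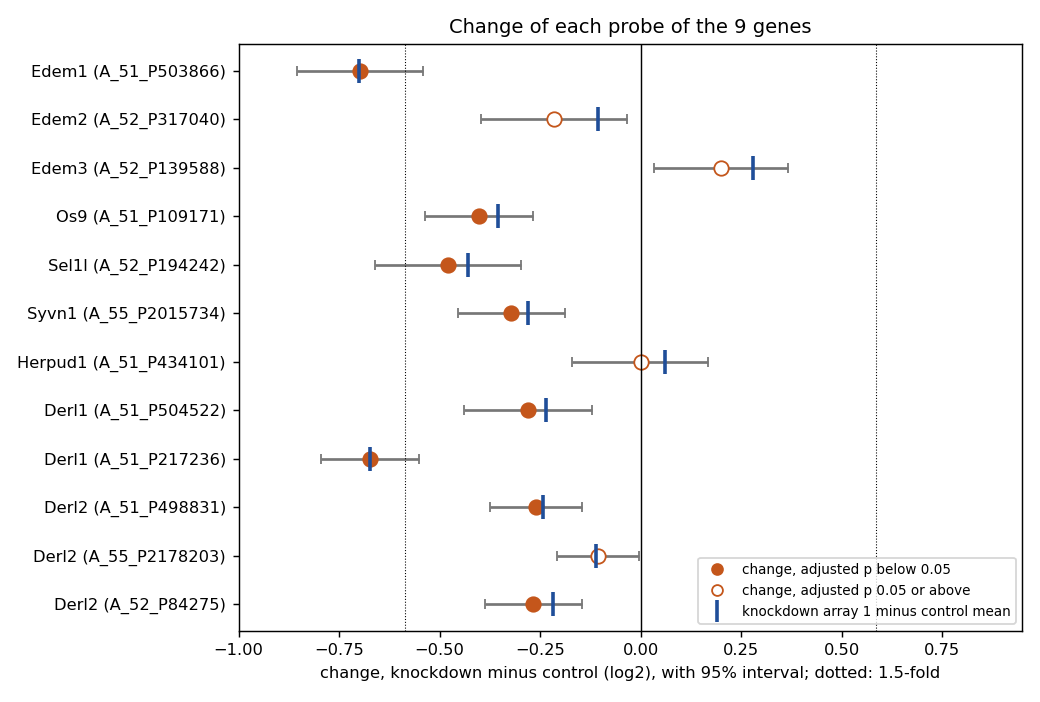
Change of each of the 12 probes (log2, knockdown minus control) with its 95% interval, filled where the limma adjusted p was below 0.05; blue ticks give knockdown array 1 minus the control mean, the value within slide row 1, and dotted lines mark a 1.5-fold change. Edem1 and the second Derl1 probe lie beyond 1.5-fold on the lower side, and Edem3 lies above 0.

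Slide row was not balanced between the groups, so it was also fitted as a block. With slide row as a block, the change is knockdown array 1 against the 3 control arrays of the same row. Within it Edem1 was at -0.70 (limma adjusted p 0.0321) and still passed. The other 5 genes that had passed did not, although each stayed lower. Sel1l was at -0.43 (adjusted p 0.0934), Os9 at -0.36 (0.0717), Syvn1 at -0.28 (0.112), Derl2 at -0.24 (0.121) and Derl1 at -0.24 (0.21). The changes of this fit rest on a single knockdown array. Knockdown arrays 2 and 3, in slide row 2, averaged -0.696 against the control mean for Edem1, -0.505 for Sel1l and -0.425 for Os9. They averaged -0.342 for Syvn1, -0.268 for Derl2 and -0.301 for Derl1. Whether slide position had an effect was not tested.

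Other ERAD genes, a list of 73, were read from the same fit. Of these, 17 were lower at an adjusted p below 0.05, 10 were higher and 46 did not pass, with a median change of -0.10. All were tested, and 69 were well above background on all 6 arrays. Lower genes thus made up 23.3% of the list, beside 15.8% of all genes and 66.7% of the 9. Called genes were 4 lower and 1 higher of the 73, beside 5.0% and 3.91% of all genes. In the higher direction 15.7% of all genes passed, beside 10 of the 73. Man1a2 and Faf2 each had probes past the test in opposite directions, and without this pair the list gave 16 lower (22.5%) and 9 higher of 71, with 3 called lower and 1 higher. With slide row as a block 3 remained lower (Erlin2, Sdf2l1 and Man1a2) and 3 higher (Tmub1, Usp19 and Dnajb9).

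Glycan trimming, lectin and lumenal factors held 12 genes, of which 5 were lower, 1 higher and 6 did not pass, at a median of -0.20. Over all genes 15.8% passed lower and 15.7% higher. Sdf2l1, a lumenal partner of ER chaperones, read 2.30, 2.34 and 2.31 in control and 1.15, 0.97 and 1.09 in knockdown. It fell by 1.24 (SE 0.061, limma adjusted p 0.000528), to 42.2% of control. Man1b1, the ER mannosidase that makes the first trimming cut, fell by 0.34 (SE 0.061, limma adjusted p 0.0164). Man1a2, a Golgi mannosidase, changed by -0.69 on its main probe (SE 0.055, limma adjusted p 0.00165) but rose by 0.33 on its other probe (SE 0.066, adjusted p 0.0239), so its direction rests on the probe, and without it 4 of the 11 genes left were lower. Dnajb9, a lumenal J-domain cochaperone known to be induced in ER stress, rose by 0.34 (SE 0.050, limma adjusted p 0.0096), and its other probe differed by 0.13 and did not pass.

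Ligases, conjugating enzymes and membrane cofactors held 34 genes, with 8 lower, 3 higher and 23 that did not pass, at a median of -0.08. The shares over all genes were 15.8% lower and 15.7% higher. Erlin2, an ER membrane scaffold that recruits the ligase Rnf170, read 1.499, 1.5 and 1.598 in control and -0.43, -0.52 and -0.44 in knockdown. The groups were far apart, and Erlin2 fell by 1.99 (SE 0.054, limma adjusted p 0.000323), to 25.1% of control. Rnf170 itself fell by 0.30 (SE 0.057, limma adjusted p 0.0189), with its other probe at 0.02 and not past the test. Also past the test were changes of -0.44 for Selenos, which ties the derlins to the Vcp ATPase, -0.42 for the J protein Dnajb14, -0.36 for H13 (signal peptide peptidase) and -0.29 for the ligase Rnf145. The other H13 probes gave -0.28, which passed, and -0.15 and 0.07, which did not. The genes that rose were Tmub1, a membrane ubiquitin-like protein, by 0.44 (SE 0.040, limma adjusted p 0.00227), the ligase Rnf139 by 0.23 and the conjugating enzyme Ube2j2 by 0.22. Rnf139 and Ube2j2 no longer passed whichever array was left out (limma adjusted p 0.0666 to 0.109 and 0.0749 to 0.126). The other probes of Ube2j2, at 0.10 and 0.20, did not pass.

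Extraction and delivery to the proteasome held 27 genes, with 4 lower, 6 higher and 17 that did not pass, at a median of 0.02. Beside these counts, 15.8% of all genes passed lower and 15.7% higher. The deubiquitinase Usp25 read -0.54, -0.37 and -0.20 in control and 0.48, 0.41 and 0.48 in knockdown. Usp25 rose by 0.82 (SE 0.095, limma adjusted p 0.0046), to 176% of control, and its other probe rose by 0.83. All 3 ubiquilins on the list, which shuttle ubiquitinated proteins to the proteasome, rose, Ubqln2 by 0.42, Ubqln4 by 0.33 and Ubqln1 by 0.28, and so did the ER-anchored deubiquitinase Usp19, by 0.35. With median scaling, which moved the median of all genes to -0.11, Usp25 and Tmub1 were the only list members past the test in the higher direction. Ube4a, a factor that lengthens ubiquitin chains, changed by -0.65 (SE 0.107, limma adjusted p 0.0126), and the Vcp cofactor Ubxn6 by -0.34. Faf2, which recruits Vcp to the membrane, changed by 0.23 on its main probe and by -0.52 on its other (limma adjusted p 0.0207 and 0.00183), so no direction is given for it, and without it 4 genes were lower and 5 higher of 26. Ubqln1, Ubqln2 and Man1b1 each no longer passed without control replicate 1 or 2 or knockdown replicate 1 or 3. Rnf170 did not pass without control replicate 2 or knockdown replicate 2 or 3. Nor did H13 and Rnf145 without control replicate 2 (limma adjusted p at most 0.0692 in all these cases).

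**Figure D4:**
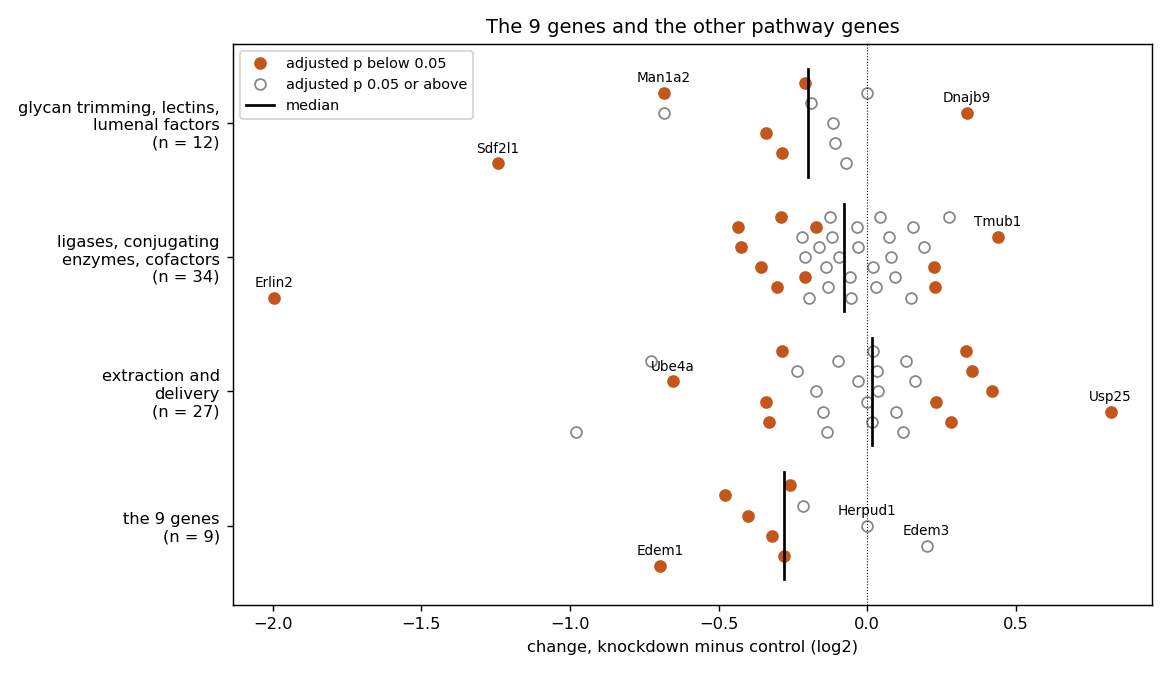
Change of each of the 73 listed pathway genes in 3 roles and of the 9 genes (log2, knockdown minus control), filled where the limma adjusted p was below 0.05, with the median of each row as a black line. The medians lie at -0.20, -0.08, 0.02 and, for the 9 genes, -0.28, and Erlin2 at -1.99 and Usp25 at 0.82 mark the ends.

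Edem1, the called member with the largest change, was then set beside all other genes. Each profile was taken as log2 normalized signal minus its mean over the control arrays, and 13975 genes well above background on all 6 arrays were compared by Euclidean distance over the 6 arrays. The nearest were Lgr5, a receptor for R-spondins, at 0.068, AI597479 at 0.074 and Ssr3, a subunit of the translocon-associated complex, at 0.081. Lgr5 changed by -0.71 (SE 0.081), AI597479 by -0.71 (SE 0.047) and Ssr3 by -0.67 (SE 0.061), with limma adjusted p of 0.00445, 0.00104 and 0.00221. These genes were picked for closeness to Edem1 on the same arrays, so changes and p-values like those of Edem1 follow from the choice.

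Across 21 other processing settings, direction was kept in all 21 for each of the 9 genes but Herpud1. Some of these settings could not move it. The other filters, the variance trend and the replicate block leave the changes of the 9 genes as reported and bear only on the test. The deposited log2 values nearly match the scaling used here. Edem1 passed in 21 of them, Os9 in 20, Sel1l in 19, Syvn1 in 18, Derl2 in 14 and Derl1 in 11. Edem3 passed in 4, Edem2 in 1 and Herpud1 in 0. The largest span was that of Sel1l, from -0.60 to -0.33.

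**Figure D5:**
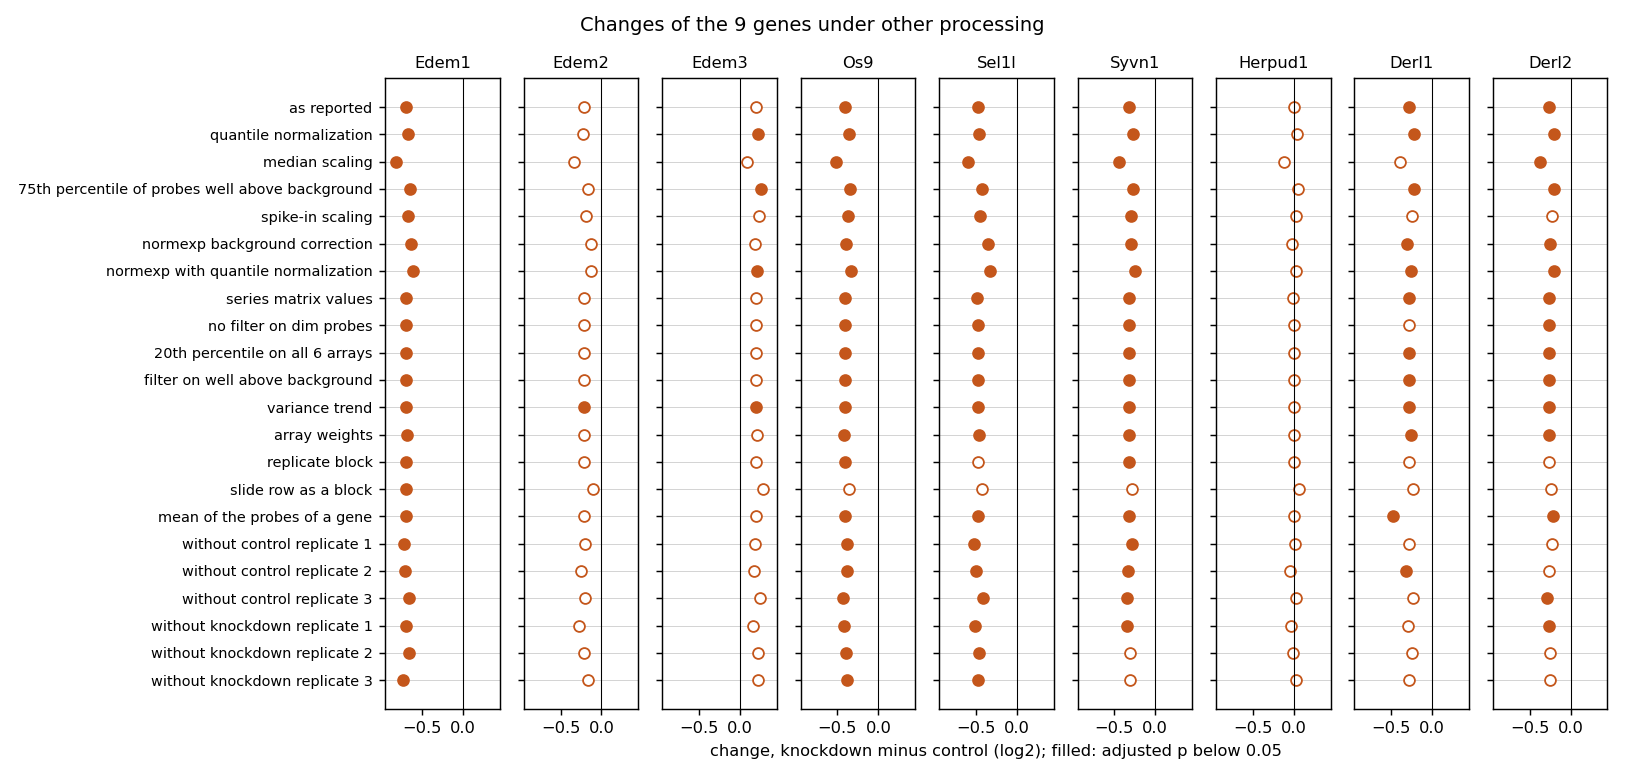
Change of the 9 genes (log2, knockdown minus control; one panel per gene) as reported and under 21 other settings, filled where the limma adjusted p was below 0.05. Edem1 is filled in every row, Os9 in all but slide row as a block, and Herpud1 in none.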

How the data were processed

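Total RNA of 3 control and 3 knockdown samples was measured on Agilent SurePrint G3 Mouse GE arrays. The authors read the scans with Agilent Feature Extraction (10.10.1.1). In the deposited tables, each spot has a processed signal, a linear intensity from which the software had taken the background. The authors also deposited log2 values, which matched the scaling used here less a constant per probe, to within 0.00761 over 43557 probes, and served as an alternative.

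Control and outlier spots were left out, log2 signals were set relative to the array's 75th percentile, and spots of a probe were averaged. Of 55681 probes, 245 had no value on some array, and 42126 reached the 20th percentile on all 3 arrays of a group. Symbols came from RefSeq (GRCm38.p6), for 26582 probes, and array coordinates, of another build, were not used. Where a gene had several probes, the one of highest mean normalized signal stood for it. Groups came from the sample titles and were compared in R 4.3.3 by limma 3.58.1, with lmFit followed by eBayes, two-sided tests and no covariates, after a test on simulated data. Passed means an adjusted p below 0.05 over all probes, and called also a fold change above 1.5. The number of arrays limits the precision.

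The members, lists and tests were chosen with earlier results of these data known. Named are the 9 members, the NF-Y subunits, the 3 genes nearest to Edem1, and up to 12 pathway genes in each direction that passed with signal well above background throughout at least 1 group, largest change first, of which 1 is not reported here. Alternatives were other scalings, background corrections, filters, variance models and thresholds, the replicate number or slide row as a block, probes averaged per gene, and each array left out in turn. Normexp (offset 50) used the median signal of each spot, because the tables used hold no mean signal.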

Additional observations from a re-analysis of the deposited data

How the results depend on the processing

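Other scalings, filters and blocks changed how many genes passed. The filters, the variance trend and the replicate block could not change the direction of the 9 genes, because they leave those changes as reported. Of the 9 genes, 6 passed in the lower direction as reported, 3 with the replicate block and 1 with slide row as a block, and 3 to 5 when 1 array was left out, lowest without knockdown replicate 2 or 3. With a variance trend 7 passed in the lower direction, as Edem2 passed too (limma adjusted p 0.0385). In the higher direction 1 passed (Edem3) with quantile normalization, with the 75th percentile of probes well above background, with normexp and quantile normalization, and with a variance trend. With median scaling 2 of the 9 were called lower (Edem1 and Sel1l), and with a fold change above 2 there were 0. Median scaling moved the median of all genes to -0.11 and that of the 9 to -0.40. It shifts every gene by the same amount, so by construction the 9 stayed at -0.28 relative to all genes.

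Herpud1, at 0.00, was 0.045 with quantile normalization, 0.052 with the 75th percentile of probes well above background, 0.029 with spike-in scaling, 0.026 with normexp and quantile normalization, 0.008 with array weights, 0.061 with slide row as a block, and -0.051 to 0.034 when 1 array was left out. Derl1 minus Derl2 ran from -0.06 to 0.048 when 1 array was left out. It was lowest, at -0.265, with probes averaged per gene, so its size depends on the probes used. Faf2 turned to -0.144 as the mean of its probes. The cause of these moves was not tested.

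Of the 73 pathway genes, 17 passed lower as reported, against 9 with spike-in scaling, 28 with a variance trend, 9 with the replicate block, 3 with slide row as a block and 7 to 12 without 1 array. Higher ones numbered 10 as reported, 17 with quantile normalization, 2 with median scaling, 16 with the 75th percentile of probes well above background, 6 with spike-in scaling, 19 with normexp and quantile normalization, 16 with a variance trend, 5 with the replicate block, 3 with slide row as a block and 5 to 8 without 1 array. With a fold change above 2, 2 were called lower and 0 higher, and with slide row as a block 0 were called higher. Leaving out genes whose probes passed in opposite directions was chosen after seeing the data.

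Over all genes, 2602 passed lower, against 1527 with spike-in scaling, 1603 with the replicate block, 999 with slide row as a block and 1718 to 2091 without 1 array. In the higher direction 2597 passed, against 858 with median scaling, 1689 with spike-in scaling, 1327 with the replicate block, 902 with slide row as a block and 1564 to 1981 without 1 array. Called lower were 824, 549 with normexp and quantile normalization and 286 with a fold change above 2. Called higher were 644, 382 with median scaling, 278 with normexp, 292 with normexp and quantile normalization and 181 with a fold change above 2. Deviations of arrays that share a replicate number in the titles correlated at 0.018, 0.067 and 0.002, so no sign of pairing was seen. Values this low do not exclude that samples were paired. The deposited files number the replicates otherwise than the titles, and the arrays that share a number there correlated at -0.004 and 0.002. With the replicate block Sel1l, Derl1 and Derl2 did not pass and their changes were as reported.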
